A study of Mus musculus with 2 samples.

Results

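The nuclei described here were single nuclei from a mouse data set of the arcuate nucleus (ARC), taken from the side of its ARC hashtag. They carried several of a set of transcripts led by Col24a1 and Tac2, a set proposed from these same nuclei for arcuate KNDy neurons. They were chosen by measured values. A nucleus had to pass the filters on genes (above 800 and below 5000), unique molecular identifiers (UMIs, at most 12000) and mitochondrial share (at most 1%), to carry at least 0.8 times as many ARC as PVH hashtag UMIs, and to hold a UMI of at least 4 of 8 gate genes (Col24a1, 4933406B17Rik, Tac2, Adamts2, A330008L17Rik, Rxfp1, Gm16267 and Sphkap). Of 11409 barcodes, 10170 passed the filters. Of those, 4395 lay on the ARC side and 5775 on the PVH side, that of the other hashtag in the pool. The members were 153, which is 3.48% of the ARC side (exact binomial 95% interval 2.96 to 4.07). The other 4242 ARC-side nuclei served as the comparison.

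The study micro-dissected the ARC from male wild-type C57BL/6J mice aged 10 to 12 weeks, sorted nuclei by NeuN, an antigen of neuronal nuclei, and sequenced them as 1 pooled library with a matching library of hashtag antibodies. The animals carried no transgene and received no treatment named in the labels, and the barcodes are not assigned to mice. Because there was 1 library, no difference between mice could be tested. Every interval given here covers counting error only.

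KNDy neurons take their name from kisspeptin, neurokinin B and dynorphin, encoded by Kiss1, Tac2 and Pdyn. They are the arcuate cells held to generate the pulses of gonadotropin-releasing hormone: neurokinin B acts back on the same cells through its receptor NK3, encoded by Tacr3, and dynorphin restrains them through the kappa opioid receptor, encoded by Oprk1. They are glutamatergic, they carry the oestrogen receptor encoded by Esr1, and in females and males alike sex steroids are known to lower their Kiss1 and Tac2 transcripts.

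The members held 856599 UMIs in all. The median nucleus had 4973 UMIs and 2706 genes, against 4767.5 UMIs in the other ARC-side nuclei. The hashtags separated the sides weakly. The median ratio of ARC to PVH hashtag UMIs was 1.31 in the members and 1.24 in the other ARC-side nuclei, and 18 members reached a ratio of 2. In 30 members and 933 of the other ARC-side nuclei the ratio was under 1, so these carried more PVH than ARC hashtag UMIs. Depth and hashtag ratio were therefore close in the groups compared.

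Kiss1, the gene that would define the label, was nearly absent from the matrix. It had 2 UMIs in 2 of the 153 members, 4 UMIs in the other ARC-side nuclei and 10 UMIs over all 11409 barcodes. In GENCODE M21 on GRCm38, Kiss1 lies at chr1:133321875-133329901 on the plus strand and overlaps Golt1a and Gm28040 on that strand. Gm28040 had 4 UMIs in the members and 12 in the other ARC-side nuclei, and Golt1a was not a row of the matrix. What this overlap did to the count of Kiss1 was not tested. With so few UMIs, kisspeptin could not be read per nucleus, so the members are called Tac2/Col24a1 nuclei here. Of the 6 genes that mark KNDy neurons, the other 5 were above 2-fold, but Tac2, Rxfp1 and Col24a1 belong to the gate, which leaves Pdyn and Nr5a2 as genes that the gate did not use. Pdyn passed the floor on UMIs, given below, only through its UMIs in the members, so Nr5a2 is the 1 marker that neither the gate nor the floor favoured. The list of 6 markers was itself chosen with earlier results of these data known. The level of Nr5a2 is therefore a description and not independent support for the label.

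The promoter of Kiss1 and those of its companions were searched because Esr1 and Nr4a2, described below, encode receptors that read related sequence. The windows were RefSeq promoters on GRCm38.p6, from 250 bases before to 50 bases after each start, and both strands were read. Of 18 genes looked up, 15 had a promoter there, with 21 promoters in all. The half-site AGGTCA was found in 4 of the 21 promoters (19.0%), against 16.3% of all 32851 promoters. The NR4A letters AAAGGTCA, which contain the half-site, were found in 1 promoter (1.51% of all), and the NR5A letters CAAGGTCA in 0 of the 21 (1.56% of all). The matches for Kiss1, Nr5a2 and Col24a1 are shown 5′ to 3′ on the strand of the gene, with the half-site, or in Col24a1 the NR4A letters around it, in capitals. TGACCT is the half-site read on the opposite strand.
Kiss1, chr1:133327139-133327160: tctctcttTGACCTaggctctg
Kiss1, chr1:133327168-133327189: acgaactcTGACCTggtcttca
Nr5a2, chr1:136960499-136960520: tttacagcAGGTCAtacatgct
Col24a1, chr3:145292324-145292347: gggtggcaAAAGGTCActtgagag
The share of searched promoters with the half-site was thus close to that of all promoters, and a match is a description of letters, not a site.

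The gate genes are given as a description, since they chose the members. Levels are counts per 1000000 UMIs (CPM), summed over the nuclei of a group, and ratios compare the members with the other ARC-side nuclei. Tac2 (chr10:127724478-127731768), the neurokinin B precursor, stood at 161 CPM in the members and 13.5 in the others. Col24a1 (chr3:145292472-145552011), a fibrillar collagen chain, stood at 266 and 5.39 CPM, the widest separation of the gate genes. Rxfp1 (chr3:79641611-79737880), the relaxin receptor, stood at 309 and 29.8 CPM. Sphkap, an anchor of protein kinase A, had the highest gate level in the members, 383 CPM, and Adamts2, a procollagen protease, had 128 CPM. The 3 remaining gate genes are long non-coding RNAs. A330008L17Rik, 4933406B17Rik and Gm16267 had 285, 159 and 126 CPM in the members, and 27.0, 8.64 and 11.3 in the others.

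**Figure D1:**
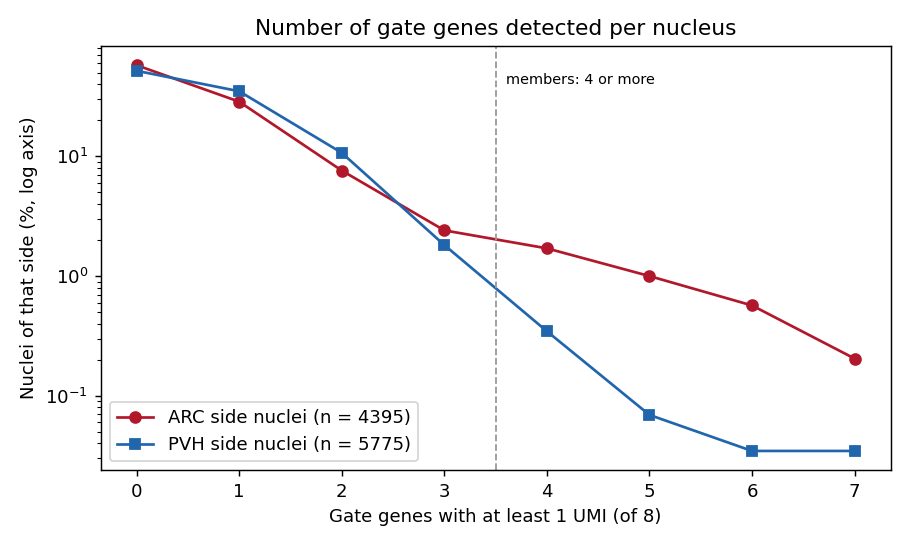
The number of gate genes with a UMI per nucleus (x axis, of 8) against the percentage of nuclei of each hashtag side (y axis, log scale), ARC side in red and PVH side in blue. The PVH side lies above the ARC side at 1 and 2 gate genes, with 35.0% against 28.7% and 10.7% against 7.62%, and the ARC side above from 3 on, with 2.41% against 1.82% at 3 and no nucleus at 8.

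The number of gate genes fell off without a gap. On the ARC side 2541 nuclei had none of them, 1260 had 1, 335 had 2 and 106 had 3, just outside the gate. Just inside it, 75 members had 4 gate genes, 44 had 5, 25 had 6, 9 had 7 and 0 had all 8. On the PVH side 28 of 5775 nuclei passed the gate (0.485%, 0.322 to 0.700).

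Each gate gene was also read in nuclei gated on the other 7 genes, still at 4 or more, so that it did not choose its own nuclei. Tac2 then had a UMI in 53 of 118 nuclei (44.9%), and Col24a1 in 47 of 111 (42.3%), against 6.92% and 2.64% of the remaining ARC-side nuclei. The lowest of the 8 was Gm16267 with 37.1% against 5.41%, and the highest Sphkap with 68.7% against 17.3%. All 8 were proposed from these same nuclei, so these shares are a description and no support for the set.

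Within the members single transcripts were sparse. Tac2 was at 0 UMIs in 65 of the 153 nuclei, at 1 in 57, at 2 in 19 and at 3 or more in 12, with a highest value of 6. Col24a1 was at 0 in 64 nuclei and at 3 or more in 37. Esr1, which the gate did not use, was at 0 in 21 nuclei and at 3 or more in 57, with a highest value of 14. No single nucleus held more than 15% of the UMIs of a plotted gene except for Kiss1, with its 2 UMIs.

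**Figure D2:**
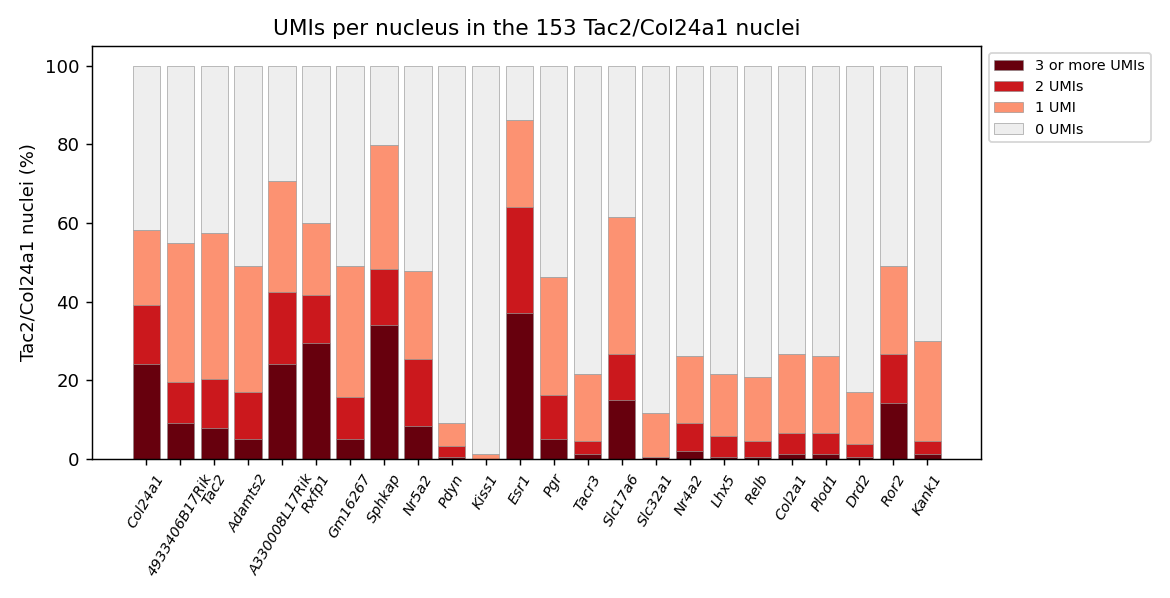
UMIs per nucleus in the 153 Tac2/Col24a1 nuclei for the 8 gate genes, the KNDy genes, steroid receptors and the genes with the highest ratios (x axis), as percentages of nuclei with 0, 1, 2 or at least 3 UMIs (y axis, stacked to 100%). Esr1, Sphkap and A330008L17Rik are found in most nuclei, and Pdyn and Kiss1 in few.

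Over all genes the members were compared with the other ARC-side nuclei at 12113 genes with at least 5 UMIs expected in the members, a floor that leaves out 2 of the 13 genes of the kisspeptin, tachykinin and opioid list. Of these genes, 290 (2.39%) were higher by at least 2-fold and 880 (7.26%) lower by at least 2-fold. The expected UMIs were taken at the mean level over all ARC-side nuclei, which includes the members. At the level of the other nuclei alone, 12 of the 290 would be under 5 UMIs, Col24a1 of the gate among them, so these 12 passed only through the UMIs of the members. The 290 include the 8 gate genes. The counts are a description, without a test, and the median log2 ratio over all these genes was -0.037.

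Tacr3 and Oprk1, the receptors of neurokinin B and dynorphin, were higher in the members, and those of the other opioid peptides were not. Of the 11 genes of the kisspeptin, tachykinin and opioid list past the floor, 4 were higher by at least 2-fold and 4 lower, with a median log2 ratio of -0.47. Tac2, a gate gene, was among the 4 that were higher, and Pdyn passed the floor only through its UMIs in the members. Without these, 2 of 9 were higher, Tacr3 and Oprk1, and 4 lower, against 2.39% and 7.26% of all genes. Tacr3 (chr3:134829007-134934579), the neurokinin B receptor, had 42 UMIs in the members, or 49.0 CPM (Poisson interval 35.3 to 66.3), against 6.69 in the others, a log2 ratio of 2.87 (2.34 to 3.38). It was found in 21.6% of the members, in 3.23% of the other ARC-side nuclei and in 1 of 32 non-neuronal nuclei (3.13%), which had a median of 3512 UMIs. These were ARC-side nuclei chosen for a UMI of at least 3 genes of 1 non-neuronal marker list and of at most 2 of 5 neuronal markers.

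Pdyn (chr2:129686565-129699844), the dynorphin precursor, had 20 UMIs in 14 members, 23.3 CPM (14.3 to 36.1) against 5.62, a log2 ratio of 2.05 (1.29 to 2.74). Oprk1, the kappa opioid receptor, had 31.5 CPM against 14.3, a log2 ratio of 1.14 (0.51 to 1.71). That ratio was under 2-fold in 2 of the 9 alternative settings that gave one. Oprm1, the mu receptor, stood at 35.0 CPM against 93.6 (log2 ratio -1.42, -1.99 to -0.90), and Oprl1, the nociceptin receptor, at 5.84 against 14.2. Pnoc, the nociceptin precursor, and Oprd1, the delta receptor, were the remaining 2 lower by at least 2-fold, on 3 and 4 UMIs. Penk and Tac1, the enkephalin and substance P precursors, had log2 ratios of -0.47 and -0.36, with intervals that include 0.

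Among transmitter genes, that of glutamate loading was higher by at least 2-fold, and of 3 genes of GABA 1, Gad1, was lower by it. Slc17a6, the vesicular glutamate transporter VGLUT2, had 172 UMIs in the members, 201 CPM (172 to 233) against 40.2, a log2 ratio of 2.32 (2.08 to 2.56). It was found in 61.4% of the members, 14.9% of the other ARC-side nuclei and 9.38% of the 32 non-neuronal nuclei. Slc32a1, the vesicular GABA transporter, had 23.3 CPM against 37.6, with a log2 ratio of -0.69 (-1.41 to -0.052). Gad1 and Gad2, the enzymes that make GABA, had log2 ratios of -1.28 and -0.90. Against the other Slc17a6 nuclei, described below, these were -0.89 and -0.41, and the ratio of Gad1 was also under 2-fold in 3 of 10 alternative settings. Of the 8 transmitter genes past the floor, 1 was higher by at least 2-fold, Slc17a6, and 4 were lower, among them Gad1 and Slc18a2, the vesicular monoamine transporter. Over all genes 2.39% were higher and 7.26% lower. Chat, which makes acetylcholine, and Slc6a3, the dopamine transporter, were at 0 UMIs, for which the floor of 3 counts is 3.50 CPM.

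By nucleus, 86 members had a UMI of Slc17a6 and none of Slc32a1, 10 the reverse, 8 had both and 49 had neither. The 18 members with a Slc32a1 UMI had Esr1 in 72.2%, Tac2 in 61.1% and Nr5a2 in 33.3%, against 88.1%, 57.0% and 49.6% of the 135 without. Their shares of Tac2 were thus close, and their Esr1 and Nr5a2 shares lower within wide intervals. Doublets were not called, so nuclei with both transporters may hold RNA of more than 1 nucleus, which was not tested.

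Receptors of oestrogen and progesterone were on the high side and corticosteroid receptors lower. Esr1 (chr10:4611593-5005614), the oestrogen receptor alpha, had 384 UMIs, 448 CPM (405 to 495) in the members against 103 in the others, a log2 ratio of 2.12 (1.96 to 2.28). It was found in 86.3% of the members, 29.0% of the other ARC-side nuclei and 0 of the 32 non-neuronal nuclei, which allows a share of up to 9.38%, taken as 3 counts of the 32. After thinning each nucleus to 1000 UMIs the shares were 36.1% and 9.04%, a ratio of 4.00 against 2.98 without thinning. Pgr, the progesterone receptor, had 124 against 68.7, a log2 ratio of 0.85 (0.55 to 1.13), which is under 2-fold. It was past 2-fold at 1.09 with 3 gate genes, 1.11 with 6 and 1.14 within the interquartile range of depth. In the other planned settings it was under 2-fold. Against nuclei with 0 gate genes and PVH-side nuclei, chosen after seeing the data, it was 1.16 and 1.61.

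Pgr was found in 45.5% of the 132 members with an Esr1 UMI and in 52.4% of the 21 without, while in the other ARC-side nuclei it was found in 39.2% of those with Esr1 and 17.9% of those without. Nr3c1, the glucocorticoid receptor, stood at 44.4 CPM against 126, a log2 ratio of -1.51 (-2.01 to -1.05). Nr3c2, the mineralocorticoid receptor, stood at 79.4 against 175, a log2 ratio of -1.14 (-1.51 to -0.80), under 2-fold in 3 of 10 alternative settings. Esr2 and Gper1, which encode other oestrogen receptors, were at 0 UMIs and under the floor of expected UMIs.

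Of the metabolic and peptide hormone receptors, 2 of 18 past the floor were higher by at least 2-fold and 6 lower. The shares over all genes were 2.39% and 7.26%. Prlr, the prolactin receptor, had 386 CPM against 101, a log2 ratio of 1.94 (1.77 to 2.10), and was found in 79.7% of the members. Igf1r, the receptor of insulin-like growth factor 1, had 190 against 86.1, a log2 ratio of 1.14 (0.90 to 1.38). Insr, the insulin receptor, differed little, with 72.4 against 92.0 and a log2 ratio of -0.35 (-0.73 to 0.019).

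Receptors of leptin and growth hormone were on the low side. Lepr, the leptin receptor, had 11 UMIs, 12.8 CPM against 45.5, a log2 ratio of -1.83 (-2.83 to -0.98). That ratio was under 2-fold in 1 of the 8 alternative settings that gave one. Lepr stood at 101 CPM in the Pomc nuclei, the 294 other ARC-side nuclei with at least 3 Pomc UMIs. Ghr, the growth hormone receptor, had 121 CPM against 440, a log2 ratio of -1.86 (-2.15 to -1.58), under 2-fold in 2 of 10 alternative settings. Npy2r, Calcr, Glp1r and Crhr2, receptors of peptide YY, calcitonin, glucagon-like peptide 1 and urocortins, were the other 4 that were lower, and Crhr2 was at 0 UMIs.

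**Figure D3:**
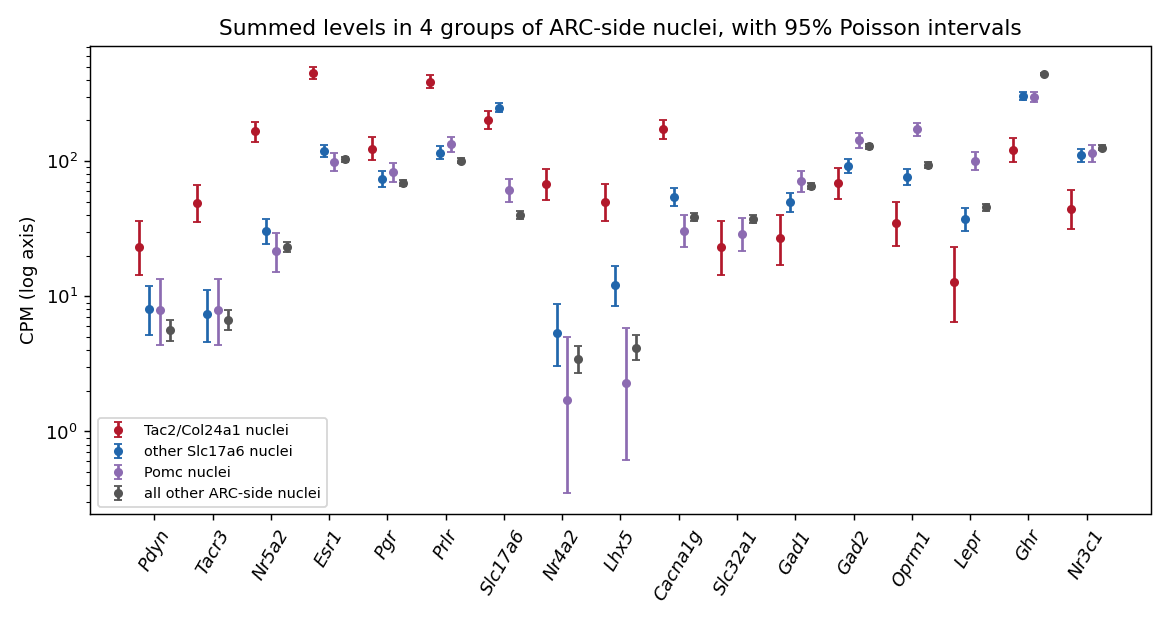
Summed CPM (y axis, log scale) with 95% Poisson intervals for 17 genes (x axis) in Tac2/Col24a1 nuclei (red), other Slc17a6 nuclei (blue, chosen for a Slc17a6 UMI), Pomc nuclei (purple, chosen for Pomc UMIs) and all other ARC-side nuclei (grey). Esr1, Prlr, Nr5a2, Nr4a2 and Tacr3 are highest in red, and Lepr, Oprm1, Ghr and Nr3c1 are lowest in red. Where a group has 0 UMIs no point is drawn.

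The ratios were set against glutamatergic neighbours as well. The 534 other ARC-side nuclei with a Slc17a6 UMI and no Slc32a1 UMI had a median of 5169.5 UMIs. Of 12067 genes past the floor in that comparison, 344 (2.85%) were higher in the members by at least 2-fold and 819 (6.79%) lower. Esr1 stood at 119 CPM in those nuclei, which gives a log2 ratio of 1.91, and Prlr at 116, which gives 1.74. Nr5a2 and Tacr3 kept log2 ratios of 2.44 and 2.73. Oprk1 and Igf1r fell just under 2-fold there, with 0.97 each. Lepr, Oprm1, Ghr, Nr3c1 and Nr3c2 were lower by at least 2-fold in this comparison too.

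Transcription factors were mostly on the low side, with a few at high ratios. Of 17 listed factors past the floor, 2 were higher by at least 2-fold and 10 lower, with a median log2 ratio of -1.36. The shares over all genes were 2.39% higher and 7.26% lower. Nr4a2 (chr2:57106830-57124003), an orphan nuclear receptor known from dopamine neurons, had 58 UMIs in 40 members, 67.7 CPM (51.4 to 87.5) against 3.44, a log2 ratio of 4.30 (3.78 to 4.82). It passed the floor only through those UMIs, since 2.94 would be expected at the level of the others. Nr5a2 (chr1:136842571-136960448), the nuclear receptor also called liver receptor homologue 1, had 142 UMIs, 166 CPM (140 to 195) against 23.2, a log2 ratio of 2.84 (2.56 to 3.11). It was found in 47.7% of the members, 8.46% of the others and 0 of 32 non-neuronal nuclei. Its log2 ratio was reversed, at -0.47, in 1 of 10 alternative settings, which left 4 members.

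The lower factors included those of other arcuate and neighbouring classes. Tcf7l2, an effector of Wnt signals, had a log2 ratio of -2.93, and Otp, a factor of Agrp and paraventricular neurons, -2.44. Isl1, which Pomc neurons use, had 32.7 CPM against 134, a log2 ratio of -2.03 (-2.63 to -1.50). Sim1, the marker of the paraventricular nucleus, had 2 UMIs in the members. Tbx3 and Nkx2-1, factors of the arcuate neuroepithelium, had log2 ratios of -0.046 and 0.42, with intervals that include 0. Under the floor, Nhlh2 and Sox14 had 19 and 20 UMIs in the members, 22.2 and 23.3 CPM against 1.63 and 4.18, while Prdm12, Nr5a1 and Fezf1 were at 0 UMIs, with 3.58, 1.02 and 0.929 CPM in the others.

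The 10 highest ratios past the floor and outside the gate were Nr4a2, Lhx5, Relb, Col2a1, Tacr3, Plod1, Nr5a2, Drd2, Ror2 and Kank1, from log2 4.30 down to 2.66. The first 3 of them passed the floor only through the UMIs of the members, with 2.94, 3.58 and 4.50 UMIs expected at the level of the others, and the other 7 would pass it at that level as well. Since the ratios chose these genes, their order is a description. Lhx5, a LIM homeobox factor of the developing forebrain, had 43 UMIs and a log2 ratio of 3.59 (3.03 to 4.12). Relb is a subunit of NF-kappa B, and had 3.15. Drd2, the D2 dopamine receptor, had 40.9 CPM against 6.13, a log2 ratio of 2.74 (2.16 to 3.28). That ratio was under 2-fold in 1 of the 9 alternative settings that gave one. Ror2, a receptor of Wnt ligands, had 182 against 27.8 and was found in 49.0% of the members.

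Col2a1 and Plod1, of the 10, belong to collagen and its making, but are not in the list of collagens and ADAMTS proteases, whose median log2 ratio was -0.26. Col2a1, the type II collagen chain, had 61.9 CPM against 7.25, a log2 ratio of 3.09 (2.62 to 3.55). Plod1, an enzyme that hydroxylates lysine in collagen, had 60.7 against 8.41, a log2 ratio of 2.85 (2.38 to 3.30). In that list, 4 of 23 genes past the floor were higher by at least 2-fold and 9 lower. Col24a1 and Adamts2 were from the gate and Col14a1 and Col11a1 from outside it, at log2 1.70 and 1.17. Without the gate genes 2 of 21 were higher and 9 lower, against 2.39% and 7.26% of all genes. Adamts17 was among the lower ones, with 31.5 CPM against 112.

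The 10 lowest genes past the floor were all at 0 UMIs in the members and included Gad1os, Htr2a, B130024G19Rik, Col6a1, B020031H02Rik, Ccdc114, Gm36756, Gm17173 and Has2os. In total 21 genes past the floor were at 0, and the highest level among them in the other nuclei was 10.5 CPM. Gad1os, antisense to Gad1, and Htr2a, the serotonin 2A receptor, had the most UMIs to expect. The lowest ratio with a UMI belonged to a marker of Agrp neurons, Corin, with 1 UMI in the members against 41.9 CPM in the others.

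Ion channels that set firing were higher in a few cases. Of 35 listed channels past the floor, 4 were higher by at least 2-fold and 3 lower, with a median log2 ratio of 0.030. Over all genes 2.39% were higher and 7.26% lower, so the share of lower channels was near that of all genes. Cacna1g, the T-type calcium channel Cav3.1, had 173 CPM (146 to 203) against 38.7, a log2 ratio of 2.16 (1.90 to 2.41). Trpc5, a cation channel of the TRPC family, had 692 against 226, a log2 ratio of 1.62 (1.49 to 1.74). Kcnd2, the A-type potassium channel Kv4.2, had a UMI in all 153 members and a level of 3597 CPM against 1500, a log2 ratio of 1.26 (1.21 to 1.31).

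Kcnq5, an M-type potassium channel, was at the threshold, with 564 against 276 and a log2 ratio of 1.03 (0.89 to 1.16). It was under 2-fold in 7 of 10 alternative settings, the lowest at 0.71, and at 0.92 against the other Slc17a6 nuclei. Hcn2, a pacemaker channel, had a log2 ratio of 0.17. The lower channels included Kcnj3, a subunit of the inward rectifier that opioid and GABA-B receptors open, with 57.2 CPM against 201 and a log2 ratio of -1.82 (-2.25 to -1.41), and Trpc4, with -1.51.

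Of 32 receptors of glutamate and GABA past the floor, 0 were higher by at least 2-fold and 7 lower. Over all genes 2.39% were higher and 7.26% lower, so few higher ones would be found among 32 genes in any case. Grm8, a metabotropic glutamate receptor, had 51.4 against 234 CPM, a log2 ratio of -2.19. Grin3a, an NMDA receptor subunit, had -1.98, and Grin2a, another, had 0.92 (0.80 to 1.04). Gabrb2, Grik1 and Gria4 were also lower, at -1.32, -1.16 and -1.11. Gabrb1, a GABA-A receptor subunit, stood at 818 CPM in the members, with a log2 ratio of 0.036.

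Genes of peptide processing had a median log2 ratio of -0.13. Of 15 past the floor, 1 was higher by at least 2-fold and 2 lower, against 2.39% and 7.26% of all genes. The higher one was Pcsk1, the prohormone convertase 1, with 79.4 CPM against 39.0 and a log2 ratio of 1.02 (0.65 to 1.38). It was at 0.60 against the other Slc17a6 nuclei, and under 2-fold in 2 of 10 alternative settings. Vgf and Cadps2, a granule protein and a regulator of granule release, were lower, at -1.27 and -1.04. Pcsk2, the partner convertase, had -0.62 (-0.86 to -0.39). Pam and Cpe, which finish peptides, had -0.13 and 0.026.

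Markers of other classes were checked beside these results. Neuronal markers were present, with Snap25 in 95.4% of the members, and the 5 on the list had a median log2 ratio of -0.13. Rbfox3, which encodes the NeuN antigen of the sort, was the 1 beyond 2-fold, at 539 CPM against 227, while Syt1 and Elavl4 had log2 ratios of -0.41 and -0.77. Of 5 oligodendrocyte markers, 4 were past the floor and 2 lower by at least 2-fold, against 7.26% of all genes. The summed level of these markers was 51.4 CPM in the members against 112. Of the astrocyte and tanycyte markers 4 of 5 were at 0 UMIs. Among the precursor markers Vcan, a proteoglycan that neurons also express, had 28 UMIs and a log2 ratio of 1.90 (1.27 to 2.47), and Cspg4, Olig1 and Olig2 were at 0.

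Transcripts of peptides that other neurons secrete were found in every group, also in the non-neuronal nuclei. Oxt had a UMI in 90.8% of the members, 90.4% of the other ARC-side nuclei and 93.8% of the non-neuronal nuclei, and Agrp in 50.3%, 53.6% and 28.1%. Pomc had a UMI in 32.0% of the members, 43.1% of the other ARC-side nuclei and 40.6% of the non-neuronal nuclei, which should lack it. Of 12 other neuropeptides past the floor, 0 were higher by at least 2-fold and 1, Pomc, was lower by it, against 2.39% and 7.26% of all genes. The highest log2 ratio among the 12 was 0.078. None of the shares of nuclei with a UMI of these other peptides is read as expression in the members. For Tac2 and Pdyn, whose shares in the members are given, no share in the non-neuronal nuclei is given here.

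Genes outside the gate were followed over the number of gate genes. Esr1 was found in 22.4% of ARC-side nuclei with 0 gate genes, 34.3% with 1, 45.7% with 2 and 71.7% with 3, and then in 78.7%, 90.9% and 100% of members with 4, 5 and 6, and 88.9% of the 9 with 7. Median UMIs ran from 4663 at 0 gate genes to 5224 at 2 and 5005 at 4. Nr5a2 was found in 7.52% at 0 gate genes, 29.2% at 3 and 41.3% at 4. The nuclei with 3 gate genes, just outside, therefore already resembled the members in Esr1.

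Tacr3 stayed at 2.83% to 5.66% from 0 to 3 gate genes and stood at 18.7% at 4, 20.5% at 5, 32.0% at 6 and 22.2% at 7. Slc17a6 was found in 12.0% at 0, 15.5% at 1, 23.6% at 2 and 48.1% at 3 gate genes, and in 62.7%, 68.2%, 40.0% and 77.8% at 4, 5, 6 and 7. The last 2 shares come from 25 and 9 nuclei, with intervals of 21.1 to 61.3 and 40.0 to 97.2. Slc32a1 was found in 16.1%, 17.5% and 15.1% at 0, 1 and 3 gate genes, in 67 of the 335 nuclei at 2, and in 13.3%, 9.09%, 12.0% and 11.1% at 4, 5, 6 and 7, where the interval reaches from 2.53 to 21.7 at 5. These shares come from the nuclei of 1 library.

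**Figure D4:**
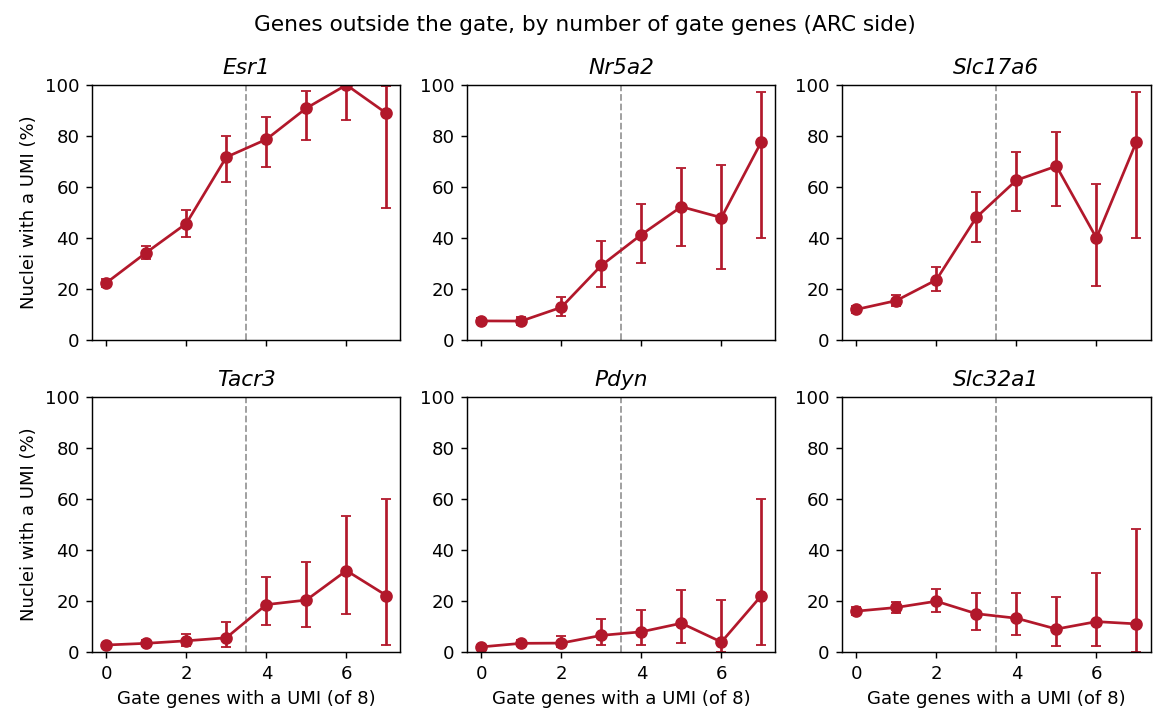
The percentage of ARC-side nuclei with a UMI (y axes, 0 to 100%) by the number of gate genes (x axes), for 6 genes that the gate did not use, with exact binomial 95% intervals and a dashed line at the gate. Esr1, Nr5a2 and Slc17a6 are already above the level of nuclei with 0 gate genes at 3, Tacr3 from 4 on, while Slc32a1 is highest at 2 gate genes (67 of 335 nuclei) and lowest at 5 (9.09%), with overlapping intervals.

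Nuclei with a Tac2 UMI and those without had close shares of most genes outside the gate. Among the 88 members with Tac2 and the 65 without, Esr1 was found in 89.8% and 81.5%, Nr5a2 in 48.9% and 46.2%, Tacr3 in 20.5% and 23.1% and Pdyn in 10.2% and 7.69%. The intervals of each pair overlap. Oprk1 was the furthest apart, in 9.09% (4.01 to 17.1) and 23.1% (13.5 to 35.2). Members with a Nr5a2 UMI had Tacr3 in 30.1% and Slc17a6 in 69.9%, against 13.8% and 53.8% of the 80 without, and their median depth was higher, 5115 against 4629 UMIs.

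Genes were also counted together. Of pairs outside the gate, Esr1 and Slc17a6 were both found in 53.6% of the members (45.4 to 61.7) and in 4.74% of the other ARC-side nuclei, and Nr5a2 and Esr1 in 39.2% and 3.02%. Tac2 and Esr1 were both found in 79 of the 153 members (51.6%) and in 2.22% of the other ARC-side nuclei. Tac2, Nr5a2 and Esr1 were found together in 36 members (23.5%) and in 18 of the 4242 others. With Slc17a6 added the counts were 24 and 7. Tac2 is a gate gene, so the sets with Tac2 rest partly on the choice of the members. Joint shares also rise with the shares of the single genes, and whether they exceed what those give was not tested.

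**Figure D5:**
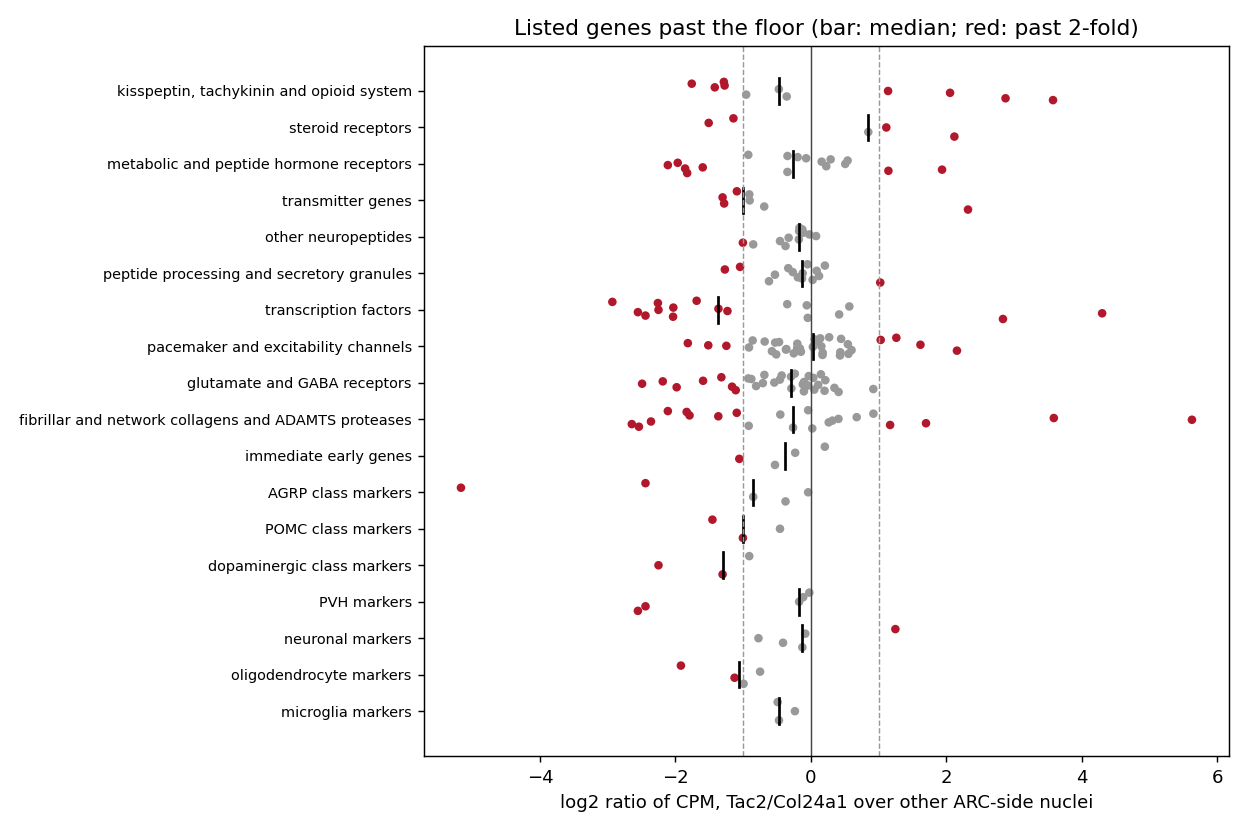
Log2 ratios of CPM, Tac2/Col24a1 nuclei over other ARC-side nuclei (x axis), for the genes past the floor in 18 gene lists (y axis), with the list median as a bar and genes past 2-fold in red. Medians range from -1.36 for transcription factors to 0.85 for steroid receptors, and genes at 0 UMIs count in the medians but have no point.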

How the data were processed

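The authors deposited 1 matrix of raw UMI counts per gene and barcode, with 2 hashtag rows named ARC and PVH. It holds nuclei of both hashtag sides, with 5775 of the 10170 past the filters on the PVH side and 4395 on the ARC side. The submitters' processing notes name Cell Ranger 5.0, Seurat 4 and mm10, and the matrix itself was written by Cell Ranger 4.0.0. The authors' filters on genes, UMIs and mitochondrial share were applied. No doublet caller was run, and the side was set by a hashtag ratio in place of their demultiplexing. Counts were summed over the nuclei of each group and scaled to counts per 1000000 UMIs in Python 3.11.15 with numpy 2.4.6 and scipy 1.17.1. Intervals (95%) were exact Poisson for levels, exact binomial for shares and conditional binomial for ratios, and cover counting error only, since 1 pooled library gives no replicates. A gene was past the floor with at least 5 expected UMIs in the members at the mean level over all ARC-side nuclei. Where a count was 0, the limit given is 3 counts of the total.

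Members, gene lists and gate were chosen with earlier results of these data known. Named were all genes of the marker, opioid, steroid receptor and transmitter lists, up to 4 of other lists by ratio, and the 10 highest and 10 lowest outside the gate, ties at 0 UMIs going to the gene with more expected UMIs. Other genes of the lists are given for their roles and were chosen after their values were seen. Positions are from GENCODE M21, promoters from RefSeq. The calculation was tested on simulated data. Some genes that the rule names are not reported here.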

Additional observations from a re-analysis of the deposited data

Results flagged for a closer look

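On the PVH side, 28 nuclei passed the gate although they were outside the comparison. Their median ratio of ARC to PVH hashtag UMIs was 0.614 and their median depth 6423.5 UMIs, above the 4973 of the members. Their level of Esr1 was 259 CPM and of Nr5a2 67.4 CPM, between the members and the PVH-side nuclei below the gate, which had 47.4 and 5.34. Sim1, the marker of the paraventricular nucleus, stood at 161 CPM in the 28 nuclei, 95.4 in the PVH-side nuclei below the gate and 2.33 in the members. How far the hashtag misplaced nuclei was not tested.

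Among the 1239 barcodes removed by the filters, 7 passed the gate. All 7 were over the limit on UMIs, with a median of 13534, 6 were also at or over the limit on genes, and 4 lay on the ARC side. Whether they hold more than 1 nucleus was not tested.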

How the results depend on the processing

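The number of members, 153, was 259 with 3 gate genes, 78 with 5 and 34 with 6, and 18 and 4 with an ARC hashtag at least 2 and 4 times the PVH hashtag. The genes higher and lower by at least 2-fold, 290 and 880, were 160 and 542 at 2 times and 52 and 184 at 4 times, where fewer nuclei brought fewer genes past the floor. They were 492 and 1612 with a floor of 2 expected UMIs, 137 and 330 with a floor of 20, 852 and 1804 at 1.5-fold and 52 and 200 at 4-fold. Their other alternatives stayed within 1.5 times, also 278 and 896 with a floor at the level of the other nuclei alone, chosen after seeing the data.

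Over 10 alternatives and 45 genes outside the gate, 428 cases gave a log2 ratio, and 335 of them stayed inside the counting interval. Cases with 0 UMIs in either group gave no ratio and are left out of these counts. Kiss1 with 6 gate genes is such a case, with 0 UMIs in the members. Of the 369 ratios for genes past 2-fold, 366 kept their sign and 340 stayed past 2-fold. The 3 that changed sign had few nuclei: Oprk1 at -0.090 with 18 members, and with 4 members Nr5a2 at -0.47 and Nr3c2 at 0.63. Ghr fell under 2-fold at -0.54 with 18 members and -0.13 with 4, Drd2 at 0.78 with 18, Lepr at -0.46 with 6 gate genes, and with 4 members Col2a1 at 0.88, Grin3a at -0.65, Kcnd2 at 0.58 and Rbfox3 at 0.93. The cause was not tested. With 2 comparisons chosen after seeing the data, Esr1 was at 2.63 against ARC-side nuclei with 0 gate genes and at 3.24 against PVH-side nuclei. Against the latter 7 of 39 genes outside the gate were no longer past 2-fold: Lepr at -0.018, Isl1 at -0.67, Igf1r at 0.69, Kcnq5 at 0.72, Oprk1 at 0.74, Gad1 at -0.91 and Pcsk1 at 0.98. Kcnq5 was at 0.99 against nuclei with 0 gate genes. No paired analysis was possible because there is 1 library. Kiss1, Pdyn and Pnoc rest on few UMIs in the members, 2, 20 and 3.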

Other observations

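Levels were also read by the depth of the members. Esr1 stood at 559 CPM (443 to 697) in the 38 members below the lower quartile of UMIs, at 510 between the quartiles and at 322 (263 to 391) in the 38 above the upper quartile. Slc17a6 stood at 241, 242 and 131 CPM, Tac2 at 227, 189 and 97.0, Nr5a2 at 177, 189 and 131, and Tacr3 at 28.3, 70.7 and 31.3, in the same order. The intervals of the shallowest and deepest members did not overlap for Esr1 and Tac2, and overlapped for the other 3. Tac2 is a gate gene, and at least 4 gate genes were required at every depth. The part of nuclei joined in 1 droplet in these values was not tested.

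Immediate early genes were low in the members and the others. Of 13 listed, 4 were past the floor and 1, Junb, was lower by at least 2-fold, on 4 UMIs. Over all genes 7.26% were lower. The summed level of the 13 was 99.2 CPM in the members and 109 in the other ARC-side nuclei. Microglial markers had summed levels of 111 and 138 CPM, with none of the 3 past the floor beyond 2-fold.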
